A study of Mus musculus with 2 samples.

Results

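Non-cycling pancreatic mesenchyme is described here in the pancreas of mouse embryos at stage E15.5, in 62 Mettl3pKO and 659 WT cells, 721 of 10008 cells in all. The cells were chosen by their own UMI counts (unique molecular identifiers, which count captured RNA molecules). With n a gene's UMIs per 10000 UMIs of the cell, a cell was taken when Col1a1 and Col3a1, both fibrillar collagens, together reached an n of 20 and when 9 proliferation genes (Aurkb, Birc5, Ccnb1, Cdk1, Cenpf, Mki67, Top2a, Tpx2 and Ube2c) together stayed below an n of 2. It also had no Epcam UMI, fewer than 3 UMIs over the mesothelial genes Upk3b, Upk1b, Msln and Lrrn4, and an n under 100 for the acinar protease gene Ctrb1, under 200 for the glucagon gene Gcg and under 200 for the insulin genes Ins1 and Ins2 together. Levels of these genes in the selected cells therefore follow from the selection and are given as a description.

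The study set pancreata of Mettl3pKO embryos, in which Mettl3 was removed from Pdx1+ pancreatic progenitor cells, beside pancreata of WT embryos. Each genotype gave 1 single-cell library, made from enzymatically dissociated tissue on the BD Rhapsody platform, and neither the number of embryos behind a library nor the driver line beyond its Pdx1+ target is stated. The deletion was aimed at the epithelial lineage, so the mesenchyme of the Mettl3pKO pancreas is not a cell type in which the labels place the deletion. With 1 library per genotype there was no replicate and no test could be made; a difference between genotypes and a difference between these libraries cannot be told apart.

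Pancreatic mesenchyme is the fibroblast-like tissue that surrounds the branching epithelium of the fetal gland. It descends from the splanchnic mesoderm of the gut tube, secretes collagens and other matrix, and supplies growth factors such as Fgf10 that keep epithelial progenitors dividing. Mettl3 is the catalytic subunit of the complex that writes N6-methyladenosine (m6A) on messenger RNA, a mark that alters the splicing, export, translation and decay of transcripts.

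The libraries differed in depth, which bears on every comparison. The shallowest cell had 10719 UMIs in the Mettl3pKO table and 3803 UMIs in the WT table, and both tables ended inside their last line. Mettl3pKO members had a median of 12843 UMIs (range 11766 to 23113) and 4115 genes, against a median of 8399 UMIs (6564 to 19564) and 3142 genes in WT members. All 62 Mettl3pKO members and 91 of the WT members reached 11000 UMIs, and results that differ by a large factor or in direction between all members and those deep members are given both ways. Mitochondrial transcripts made up a median of 5.05% of UMIs in Mettl3pKO members and 4.88% in WT members. The mix of embryos also differed, with UMIs of Y-linked genes and none of Xist in 46 Mettl3pKO members and 225 WT members, Xist alone in 10 Mettl3pKO members and 349 WT members, and UMIs of both in 4 Mettl3pKO members and 15 WT members. Over all cells, 33 cell labels occurred in both libraries.

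The selected cells carried the markers of fibroblast-like mesenchyme in both libraries, including markers the selection did not use. Levels are UMIs of a gene per 1000000 UMIs summed over the members of a library (CPM), and brackets hold 95% intervals, exact Poisson for a level and exact conditional binomial for a ratio. All intervals cover counting error alone. Pdgfra, the receptor that marks fibroblasts of many organs, stood at 316 CPM in Mettl3pKO members (279 to 357) and 365 CPM in WT members (349.7 to 381). Postn, a matricellular protein, stood at 873 CPM in Mettl3pKO members and 814 CPM in WT members, a ratio of 1.07 (0.9905 to 1.16). Cxcl12, a chemokine made by stromal cells, stood at 261 CPM in Mettl3pKO members and 348 CPM in WT members, a ratio of 0.751 (0.651 to 0.864). Each of the 8 mesenchyme markers outside the selection rule lay within 1.5-fold between the libraries, and their median log2 ratio was 0.03.

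The same markers were far lower in Epcam-positive cells, taken as the epithelial cells of the same libraries (2968 Mettl3pKO and 4280 WT cells). This set held cells with an Epcam UMI that stayed below the collagen threshold of the rule. Low Col1a1 and Col3a1 in the set follow from that limit. Cells with an Epcam UMI that reached the threshold were left out, which can also lower the other mesenchyme markers there. The size of that effect was not tested. Pdgfra was at 1.78 CPM there in Mettl3pKO and 1.17 CPM in WT, and Postn at 2.62 CPM in Mettl3pKO and 2.15 CPM in WT. After every cell was thinned to 6000 UMIs, Pdgfra was found in 79.0% of Mettl3pKO members (66.8 to 88.3; exact Clopper-Pearson) and 82.5% of WT members (79.4 to 85.4), against 1.08% of Epcam-positive cells in Mettl3pKO and 0.771% in WT. Postn was found in 91.9% of Mettl3pKO members and 92.7% of WT members. No cell was too shallow for the thinning in these sets, and before thinning the shares for Pdgfra were 87.1% in Mettl3pKO members and 89.4% in WT members. Of these 3 genes Cxcl12 was found most often in epithelial cells, in 11.8% of Epcam-positive Mettl3pKO cells and 25.7% of Epcam-positive WT cells, beside 58.1% of Mettl3pKO members and 71.5% of WT members.

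**Figure D1:**
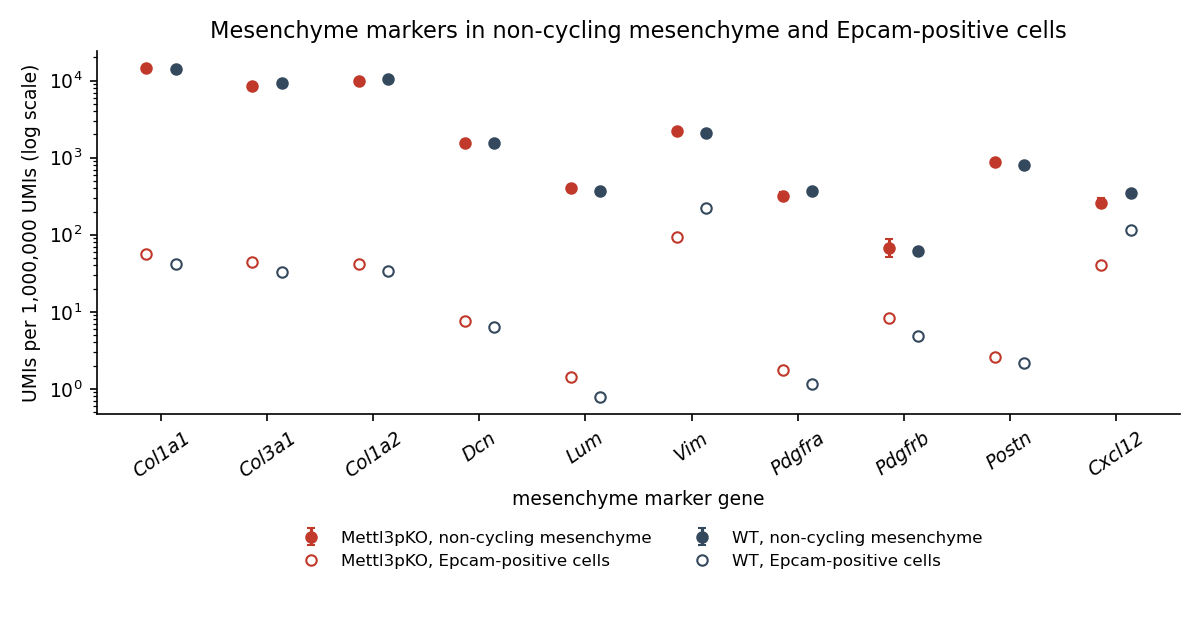
Level of 10 mesenchyme marker genes in UMIs per 1000000 UMIs (log axis), Mettl3pKO left of WT for each gene; filled points are non-cycling mesenchyme with 95% Poisson intervals, open points Epcam-positive cells. Filled points of the libraries lie close together for every gene, as for Pdgfra at 316 CPM in Mettl3pKO and 365 CPM in WT, and above the open points. Open points leave out cells that reached the collagen threshold, so those of Col1a1 and Col3a1 are low by that choice.

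Non-cycling mesenchyme made up 1.71% of Mettl3pKO cells (62 of 3624; 1.31 to 2.19) and 10.3% of WT cells (659 of 6384; 9.59 to 11.1), a ratio of 0.166 (0.126 to 0.215). Among cells of at least 11000 UMIs the shares were 1.71% in Mettl3pKO and 2.95% in WT, a ratio of 0.581 (0.414 to 0.811). Among cells of at least 13000 UMIs they were 0.949% in Mettl3pKO and 1.20% in WT, a ratio of 0.792 (0.450 to 1.40). Non-cycling mesenchyme was the shallower mesenchyme in both libraries, with the cycling cells of the same gate at a median of 13429 UMIs in Mettl3pKO and 9778 UMIs in WT. The part of the tables' depth in the difference between genotypes was not tested beyond these floors. The step that required no Epcam UMI also removed unlike parts of the libraries. Of cells reaching the collagen threshold, it left 306 of 574 in Mettl3pKO and 1364 of 1601 in WT. Such a limit is harder to meet in a deeper cell, and its part in the shares was not tested.

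Of the mesenchyme passing all other steps of the rule, 23.8% was non-cycling in Mettl3pKO (62 of 261; 18.7 to 29.4) and 56.1% in WT (659 of 1175; 53.2 to 58.9). At the 11000-UMI floor these shares were 23.8% in Mettl3pKO and 33.7% in WT, and at the 13000-UMI floor 18.95% in Mettl3pKO and 23.2% in WT, a ratio of 0.816 (0.464 to 1.44). The proliferation threshold admits more UMIs in a deeper cell. Members without any proliferation UMI numbered 16 in Mettl3pKO (25.8%) and 378 in WT (57.4%), and members with 2 or more such UMIs numbered 24, 2 and 1 (for 2, 3 and 4 UMIs) in Mettl3pKO and 34, 1 and 0 in WT. Just inside the threshold the highest summed n was 1.98 in Mettl3pKO and 1.99 in WT, and just outside the lowest was 2.00 in Mettl3pKO and 2.01 in WT. The collagen threshold cut no dense region, since the lowest collagen n inside was 30.6 in Mettl3pKO and 23.6 in WT and the highest outside, among cells passing the other steps, was 2.45 in Mettl3pKO and 19.8 in WT.

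**Figure D2:**
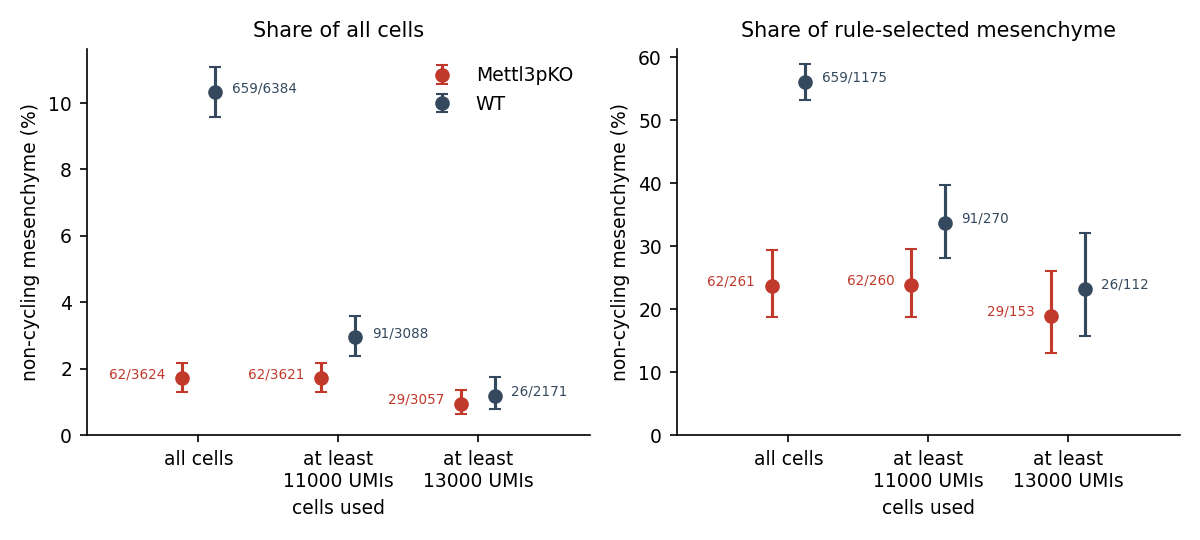
Non-cycling mesenchyme as a percentage of all cells (left) and of all mesenchyme passing the other steps of the rule (right), for all cells and above 2 depth floors, Mettl3pKO left of WT; bars are exact 95% binomial intervals and labels give cells over denominator. The libraries stand apart over all cells, 1.71% in Mettl3pKO and 10.3% in WT. Their intervals overlap at the 13000-UMI floor on the left and at both floors on the right.

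Mettl3, on chromosome 14 (chr14:52294841-52305128, minus strand, mm10, GENCODE M21), was rare in these cells. It had 10 UMIs in Mettl3pKO members, 11.9 CPM (5.72 to 21.95), and 102 UMIs in WT members, 17.3 CPM (14.1 to 21.0), a ratio of 0.688 (0.321 to 1.32). The interval holds both no difference and a ratio of 0.321, and the exons removed are not given in the sources used here, so these counts do not check the deletion. The Mettl3 ratio was 0.769 in cycling mesenchyme and 0.628 (0.559 to 0.706) in Epcam-positive cells. The other m6A writers, erasers and readers lay close to equal levels. Of 18 m6A genes measured, Mettl3 among them, with at least 50 UMIs over both libraries, 0 were at least 1.5-fold higher and 1 was at least 1.5-fold lower. That gene was the helicase-containing reader Ythdc2, at 7.16 CPM in Mettl3pKO members and 14.4 CPM in WT members. The writer subunit Mettl14 stood at 14.3 CPM in Mettl3pKO members and 18.02 CPM in WT members, the eraser Alkbh5 at 169.5 CPM in Mettl3pKO members and 139 CPM in WT members, and the reader Igf2bp1 at 123 CPM in Mettl3pKO members and 94.5 CPM in WT members.

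Among 9750 genes with at least 50 UMIs over both libraries, outside the selection rule, the median log2 ratio of Mettl3pKO to WT was 0.03 and the central 80% lay between -0.48 and 0.51. At least 1.5-fold higher in Mettl3pKO members were 664 genes, which is 6.81% of those measured, and at least 1.5-fold lower were 829, which is 8.5%. These shares are the background against which each gene list is read, and a list whose shares lie near them is no result about its genes. They were 2.78% higher and 3.89% lower among 5506 genes with at least 200 UMIs, and were 4.86% higher and 4.93% lower of 6190 genes among members of at least 11000 UMIs. WT members held 5883038 UMIs in all and Mettl3pKO members 837724, so a gene high in WT meets the UMI minimum more easily than one high in Mettl3pKO. The part of this in the counts was not tested.

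The ratio farthest above 1 among the named genes was that of Serpina6, which encodes corticosteroid-binding globulin, a serum carrier of glucocorticoids (chr12:103646630-103657212, minus strand). It stood at 314 CPM in Mettl3pKO members and 15.1 CPM in WT members, a ratio of 20.8 (16.3 to 26.7), and of 18.9 (11.9 to 31.9) among members of at least 11000 UMIs. The Serpina6 ratio was 30.8 (20.5 to 48.03) among members with Y-linked UMIs alone and 5.09 (2.39 to 9.87), from 11 Mettl3pKO UMIs, among members with Xist alone. Serpina6 was far more abundant in epithelial cells, at 7950.4 CPM in Epcam-positive Mettl3pKO cells and 1351 CPM in Epcam-positive WT cells. It was also higher in Mettl3pKO in cycling mesenchyme, at 165 CPM in Mettl3pKO and 15.7 CPM in WT, and in mesothelial cells, at 90.9 CPM in Mettl3pKO and 19.3 CPM in WT. After thinning, it was found in 48.4% of Mettl3pKO members and 9.10% of WT members, against 89.8% of Epcam-positive Mettl3pKO cells and 47.3% of Epcam-positive WT cells. Both member shares lie below those of the Epcam-positive cells of the same library. The acinar enzymes, transcripts of the same epithelium, were also present in members. Their summed level was 2076 CPM in Mettl3pKO members and 1679 CPM in WT members, beside 59183 CPM in Epcam-positive Mettl3pKO cells and 60462 CPM in Epcam-positive WT cells. The part of free or carried-over epithelial RNA in the Serpina6 level of members was not tested.

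The other genes named for high ratios lay between 1.53 and 2.66. Stmn2, a tubulin-binding protein known from growing neurites, stood at 107 CPM in Mettl3pKO members and 40.5 CPM in WT members, a ratio of 2.66 (2.06 to 3.40) and of 3.84 among deep members. It was found in 21.0% of thinned Mettl3pKO members and 6.68% of WT members, against 0.202% of Epcam-positive cells in Mettl3pKO and 0.280% in WT. Sox11, a transcription factor of embryonic progenitors, stood at 116 CPM in Mettl3pKO members and 52.2 CPM in WT members, a ratio of 2.22 (1.75 to 2.797). Thy1, a surface glycoprotein of fibroblasts, stood at 161 CPM in Mettl3pKO members and 75.3 CPM in WT members, a ratio of 2.14 (1.75 to 2.60). Tagln2, an actin-binding protein, stood at 290.1 CPM in Mettl3pKO members and 139 CPM in WT members. Mgp, an inhibitor of matrix calcification, stood at 124 CPM in Mettl3pKO members and 62.9 CPM in WT members, and in cycling mesenchyme at 133 CPM in Mettl3pKO and 40.8 CPM in WT.

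The remaining 6 were Slc25a5, a mitochondrial ADP/ATP carrier, with a ratio of 1.85, the tubulin Tubb6 with 1.76, Ifrd1 with 1.72, the matricellular protein Cyr61 with 1.72, the RNA-decay factor Zfp36 with 1.55 and the annexin Anxa2 with 1.53. Cyr61 stood at 546 CPM in Mettl3pKO members and 318 CPM in WT members. All 6 were closer to 1 among members of at least 11000 UMIs, between 1.23 for Zfp36 and 1.47 for Cyr61.

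The 12 genes named for low ratios lay between 0.405 and 0.667. Htra1, a secreted serine protease that cleaves matrix proteins (chr7:130936111-130985660, plus strand), stood at 46.6 CPM in Mettl3pKO members (33.1 to 63.6) and 115 CPM in WT members (106 to 124), a ratio of 0.405 (0.286 to 0.560). Htra1 was found in 24.2% of thinned Mettl3pKO members (14.2 to 36.7) and 45.1% of WT members (41.2 to 49.0), against 0.708% of Epcam-positive cells in Mettl3pKO and 0.678% in WT. The TEAD cofactor Vgll3 stood at 52.5 CPM in Mettl3pKO members and 110.0 CPM in WT members, a ratio of 0.478 (0.344 to 0.649). The transmembrane collagen Col23a1 stood at 101 CPM in Mettl3pKO members and 201 CPM in WT members, a ratio of 0.505 (0.401 to 0.630). The collagen VI chain Col6a6 stood at 136 CPM in Mettl3pKO members and 268 CPM in WT members, a ratio of 0.508 (0.416 to 0.615). Fat4, a large protocadherin, stood at 203 CPM in Mettl3pKO members and 359 CPM in WT members. Sned1, a matrix glycoprotein, stood at 160.0 CPM in Mettl3pKO members and 279 CPM in WT members.

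Of the other 6 lowest genes, the acetyltransferase Ep300 had a ratio of 0.531, the kinase Sik1 0.535, the netrin receptor Unc5c 0.558, the imprinted gene Peg10 0.635, the growth-factor-binding protein Igfbp5 0.637 and the imprinted long RNA Meg3 0.667. Meg3 was abundant, at 1952 CPM in Mettl3pKO members and 2926 CPM in WT members, and its ratio in Epcam-positive cells was 0.385. Igfbp5 stood at 454 CPM in Mettl3pKO members and 713 CPM in WT members. All 24 named genes kept their direction among members of at least 11000 UMIs, and 14 of them stayed at least 1.5-fold from 1.

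**Figure D3:**
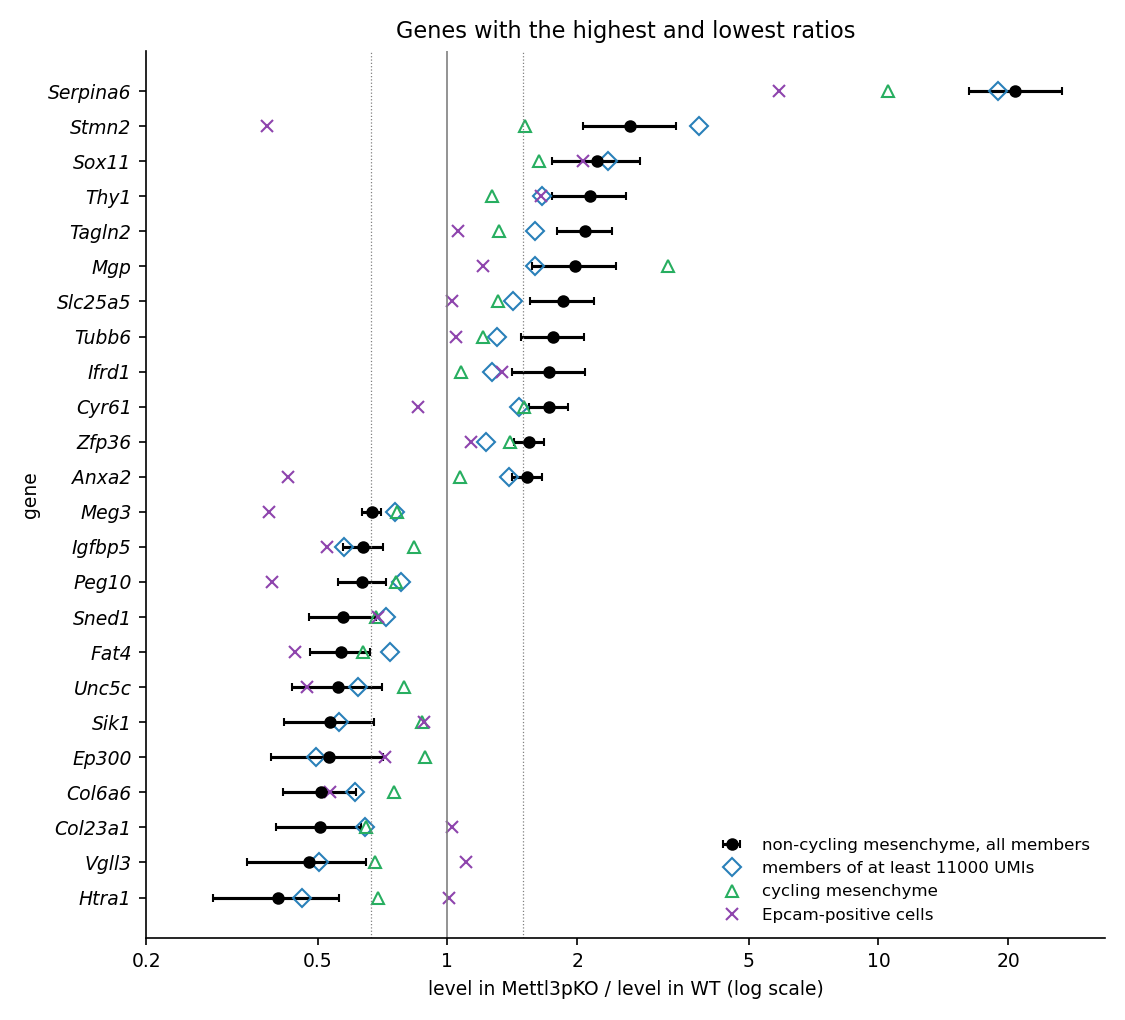
Ratio of the level in Mettl3pKO to that in WT (log axis) for 24 named genes of non-cycling mesenchyme, 12 above and 12 below 1; filled points with 95% counting intervals are all members, diamonds members of at least 11000 UMIs, triangles cycling mesenchyme and crosses Epcam-positive cells, and dotted lines mark 1.5-fold. Serpina6 stands apart at 20.8, and the others lie between 0.405 for Htra1 and 2.66 for Stmn2.

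The fibrillar collagens bear the tensile strength of the matrix. Of 6 measured besides the selection genes, 0 were past 1.5-fold in either direction, and the list's median log2 ratio was -0.10. Among members with Xist alone, of which Mettl3pKO had 10, 0 of the 6 were higher and 4 lower, with a median of -0.65; in those members 17.3% of all genes measured were higher and 23.2% lower. Col1a2, the partner chain of Col1a1, stood at 9767 CPM in Mettl3pKO members and 10483 CPM in WT members, a ratio of 0.932 (0.910 to 0.953). Col5a3, a collagen V chain, stood at 393 CPM in Mettl3pKO members and 362 CPM in WT members. The enzymes and chaperones that fold, hydroxylate, cleave and cross-link collagen held 0 of 25 past 1.5-fold, with a median of 0.11. The collagen chaperone Serpinh1 stood at 1951 CPM in Mettl3pKO members and 1805 CPM in WT members, and the cross-linking enzyme Lox at 713 CPM in Mettl3pKO members and 913 CPM in WT members.

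Of 18 other collagens, 1 was at least 1.5-fold higher and 4 lower in Mettl3pKO, with a median log2 ratio of -0.16, and among deep members 0 of 14 were higher and 3 lower, with a median of -0.06. Col8a1, of the short-chain collagens, stood at 5.97 CPM in Mettl3pKO members and 27.03 CPM in WT members, and Col26a1 at 44.2 CPM in Mettl3pKO members and 82.1 CPM in WT members. Col12a1, which decorates collagen I fibrils, went the other way, at 413 CPM in Mettl3pKO members and 273 CPM in WT members, a ratio of 1.51 (1.34 to 1.70). Of 53 matrix glycoproteins and proteoglycans, 2 were higher and 5 lower, with a median of -0.07, and among deep members 2 of 44 were higher and 0 lower, with a median of -0.001. Fibronectin, Fn1, stood at 185 CPM in Mettl3pKO members and 112 CPM in WT members, a ratio of 1.65 (1.38 to 1.97), and Nov, a matricellular signalling protein, at 69.2 CPM in Mettl3pKO members and 36.0 CPM in WT members. The integrin ligand Npnt stood at 9.55 CPM in Mettl3pKO members and 25.5 CPM in WT members. Of 31 matrix proteases and their inhibitors, 0 were higher and 2 lower, with a median of -0.15. Among members with Xist alone, 2 of 47 glycoproteins and proteoglycans were higher and 21 lower, and 0 of 29 proteases and inhibitors were higher and 13 lower. Of all genes measured in those members, 17.3% were higher and 23.2% lower. Besides Htra1, the gelatinase Mmp2 stood at 302 CPM in Mettl3pKO members and 442 CPM in WT members, a ratio of 0.683 (0.598 to 0.778), which was 0.846 among deep members.

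Of 36 growth factors and guidance cues that mesenchyme sends out, 1 was at least 1.5-fold higher and 5 lower, with a median log2 ratio of -0.11 and 14 genes above 0. Among deep members, 0 of 24 were higher and 1 lower, with a median of -0.01 and 12 genes on each side of 0. Hgf, which signals to epithelium through Met (chr5:16553495-16620152, plus strand), had the lowest ratio of the list. It stood at 8.36 CPM in Mettl3pKO members (3.36 to 17.2, from 7 UMIs) and 37.2 CPM in WT members (32.5 to 42.5, from 219 UMIs), a ratio of 0.224 (0.0892 to 0.470), while its ratio in cycling mesenchyme was 0.844. Fgf10, the mesenchymal ligand that keeps pancreatic progenitors dividing, stood at 103 CPM in Mettl3pKO members (82.1 to 127) and 144 CPM in WT members (134 to 154), a ratio of 0.715 (0.566 to 0.893), and was found in 35.5% of thinned Mettl3pKO members and 39.0% of WT members. Fgf2 stood at 22.7 CPM in Mettl3pKO members and 43.3 CPM in WT members, a ratio of 0.523 (0.310 to 0.834). Ptn, a heparin-binding growth factor, stood at 1964 CPM in Mettl3pKO members and 2698 CPM in WT members. The angiopoietin Angpt1 was the gene at least 1.5-fold higher, at 35.8 CPM in Mettl3pKO members and 22.6 CPM in WT members.

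Retinoid genes, which make, degrade and sense retinoic acid, held 1 higher and 4 lower of 13, with a median of -0.06. The log2 ratio was above 0 for 6 of them, up to 0.73, and below 0 for 7. The genes given next are among the 4 lower ones. Rdh10, an enzyme of retinoic acid synthesis, stood at 19.1 CPM in Mettl3pKO members and 40.3 CPM in WT members, and Cyp26b1, which degrades retinoic acid, at 9.55 CPM in Mettl3pKO members and 26.2 CPM in WT members. The receptor Rarb, itself a target of retinoic acid, stood at 21.5 CPM in Mettl3pKO members and 35.9 CPM in WT members. Of 24 Wnt genes, 2 were higher and 3 lower. The feedback target Axin2 stood at 31.0 CPM in Mettl3pKO members and 52.7 CPM in WT members, a ratio of 0.589 (0.379 to 0.880), and the receptor Fzd4 at 45.4 CPM in Mettl3pKO members and 25.5 CPM in WT members. Of 28 BMP and TGF-beta genes, 2 were higher and 2 lower. The activin subunit Inhba stood at 41.8 CPM in Mettl3pKO members and 14.4 CPM in WT members, a ratio of 2.89 (1.89 to 4.33), with 3.88 in cycling mesenchyme. Of 10 hedgehog receptors and targets, 2 were higher and 0 lower. The log2 ratio was above 0 for 6 and below 0 for 4, and the lowest was -0.58. Summed over all 14 genes of the list, the level was 1293 CPM in Mettl3pKO members and 1557 CPM in WT members. That is a ratio of 0.830 (0.779 to 0.884). The higher genes were the targets Gli1, at 76.4 CPM in Mettl3pKO members and 48.3 CPM in WT members, and Ptch1, at 45.4 CPM in Mettl3pKO members and 28.2 CPM in WT members. Their ratios among deep members were 1.15 for Gli1 and 1.62 for Ptch1.

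The transcription factors of splanchnic mesenchyme, of which 46 were measured, had 4 at least 1.5-fold higher, 5 lower and a median log2 ratio of -0.08. Barx1, a factor of stomach and spleno-pancreatic mesenchyme, stood at 56.1 CPM in Mettl3pKO members and 60.5 CPM in WT members, Gata6 at 112 CPM in Mettl3pKO members and 107 CPM in WT members, and Tcf21 at 96.7 CPM in both, with a ratio of 1.49 among deep members. Osr2 stood at 284 CPM in Mettl3pKO members and 429 CPM in WT members, and Isl1 at 75.2 CPM in Mettl3pKO members and 46.9 CPM in WT members. Hox genes record position along the body axis. Of 12 measured, 0 were at least 1.5-fold higher and 4 lower, 11 had a ratio below 1, and the median was -0.34. Hoxa5 stood at 82.4 CPM in Mettl3pKO members (64.1 to 104) and 134 CPM in WT members (125 to 144), a ratio of 0.613 (0.472 to 0.784), and Hoxb5 at 41.8 CPM in Mettl3pKO members and 62.9 CPM in WT members. Among deep members the Hox median was -0.21 over 8 genes, with Hoxb5 at a ratio of 0.995, and in cycling mesenchyme the ratio of Hoxa5 was 0.992. Among members with Y-linked UMIs alone the Hox median was -0.45 over 10 genes. Among members with Xist alone, of which Mettl3pKO had 10, it was 0.26 over 11 genes, with 3 higher and 2 lower. In those Xist members 17.3% of all genes measured were higher and 23.2% lower. The difference between the sexes was not tested.

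Genes that tell fibroblast subtypes apart in other tissues held 4 higher and 1 lower of 19, with a median of 0.04. Besides Thy1 and Stmn2, the higher ones were Igfbp6, at 64.5 CPM in Mettl3pKO members and 36.0 CPM in WT members, and the matrix gene Dpt, at 233 CPM in Mettl3pKO members and 145 CPM in WT members; among deep members these ratios were 1.08 for Igfbp6 and 1.22 for Dpt. Of 21 imprinted genes, 0 were higher and 2 lower, with a median of -0.11. The imprinted long RNA H19 stood at 16262 CPM in Mettl3pKO members and 16714 CPM in WT members, and the growth inhibitor Cdkn1c at 5421 CPM in Mettl3pKO members and 5016 CPM in WT members. Nnat was the lower one beside Peg10, at 27.5 CPM in Mettl3pKO members and 54.4 CPM in WT members. Of 15 genes of the YAP pathway, 2 were higher and 0 lower. They were Cyr61 and the tissue factor gene F3, at 16.7 CPM in Mettl3pKO members and 6.799 CPM in WT members.

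Lists tied to cell state shifted with depth. The 30 S phase genes measured held 9 higher and 0 lower in Mettl3pKO, with a median log2 ratio of 0.34. Uhrf1, which maintains DNA methylation through replication, stood at 75.2 CPM in Mettl3pKO members and 41.8 CPM in WT members, a ratio of 1.798 (1.34 to 2.38), and the replication clamp Pcna at 148 CPM in Mettl3pKO members and 113 CPM in WT members. Among members of at least 11000 UMIs the median of the list was -0.20, with 0 higher and 2 lower of 25, and the ratios were 1.02 for Uhrf1 and 0.868 for Pcna. The shallower WT members had fewer proliferation UMIs, as given above, and the part of this in the S phase levels was not tested. The unfolded protein and integrated stress list held 3 higher and 1 lower of 26, with a median of 0.34 that was 0.13 among deep members. Its chaperone Hspa5 stood at 1495 CPM in Mettl3pKO members and 1169 CPM in WT members, a ratio of 1.28 (1.20 to 1.36) and of 1.19 among deep members.

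Of 27 immediate early and dissociation genes, which respond to tissue handling as well as to signals, 4 were higher and 0 lower, with a median of 0.25 over all members and 0.02 among deep members. Among members with Xist alone, of which Mettl3pKO had 10, 15 of the 27 were higher and 0 lower. In those members 17.3% of all genes measured were higher and 23.2% lower. All 10 lay in the larger Mettl3pKO cluster described below, where the list summed to 178 UMIs per 10000, against 98.5 in the other Mettl3pKO members. The part of this in the count was not tested. Fos stood at 1444 CPM in Mettl3pKO members and 1342 CPM in WT members, and Egr1 at 2768 CPM in Mettl3pKO members and 2919.6 CPM in WT members. Atf3 had a ratio of 1.70 over all members and 1.09 among deep members. The 18 p53 targets held 2 higher and 0 lower, with a median of 0.22 that was 0.02 among deep members. The cell cycle inhibitor Cdkn1a stood at 16.7 CPM in Mettl3pKO members and 6.63 CPM in WT members, from 14 UMIs in Mettl3pKO and 39 UMIs in WT, and its ratio was 2.52 over all members and 1.47 among deep members. The 20 glycolysis genes held 0 past 1.5-fold in either direction, with a median of 0.18.

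**Figure D4:**
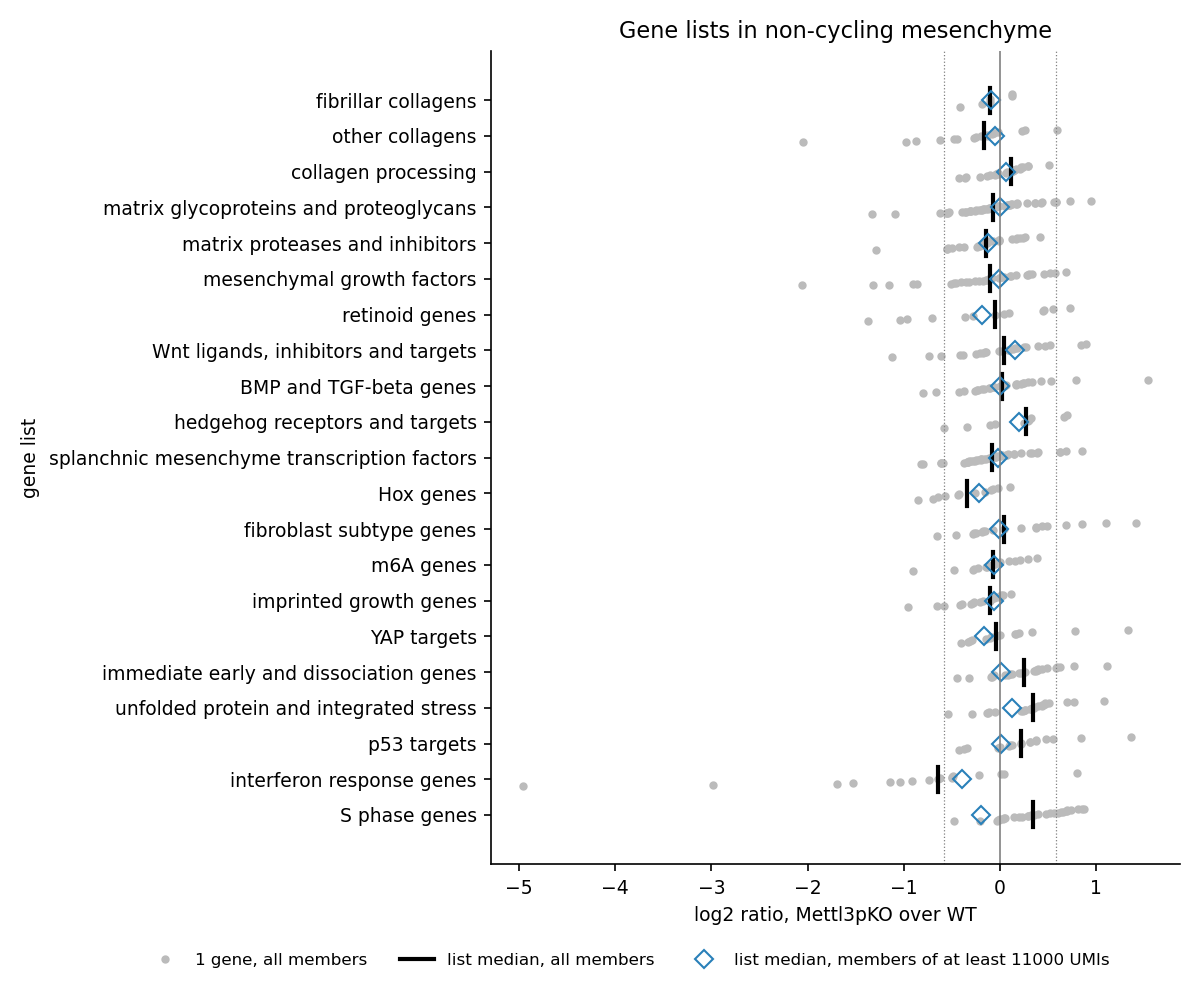
Log2 ratio of Mettl3pKO to WT in non-cycling mesenchyme by gene list; grey points are genes with at least 50 UMIs over both libraries, black bars the median over all members, diamonds the median among members of at least 11000 UMIs, and dotted lines 1.5-fold. Of the lists drawn, the interferon list has the lowest median, -0.65. Some of its genes reached the UMI minimum only through a small cluster of WT cells in which they were high, so its rank is no separate result. The S phase list changes side, 0.34 over all members and -0.20 among deep members.

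Interferon response genes had a median log2 ratio of -0.65, with 1 of 17 at least 1.5-fold higher and 11 lower in Mettl3pKO members. For some of these genes, UMIs were concentrated in a small set of WT cells. When the WT members were clustered on their own, 22 of 659 formed a cluster led by Ifit1, Usp18, Ifit3b, Ifit3 and Rsad2, which are antiviral and feedback genes induced by type I interferon. These 22 cells held 94.5% of the Ifit1 UMIs of all WT members (103 UMIs, in 11 of the cells), 92.9% of Usp18, 89.2% of Ifit3 and 88.0% of Rsad2. Of more abundant genes on the list they held less, with 4.87% of Ifitm1, 3.01% of Ifitm2, 10.5% of Ifitm3 and 6.93% of B2m. Ifit1 stood at 559 CPM in the cluster and 1.05 CPM in the other WT members. Mettl3pKO members had 0 UMIs of Ifit1 (at most 3.58 CPM, from 3 counts), 0 of Usp18, 1 of Ifit3 and 2 of Rsad2. Ifit1, Ifit3, Rsad2, Oasl2 and Ifih1 reached the UMI minimum for a gene only through the cluster. In the other WT members they had 6, 9, 6, 33 and 29 UMIs, and in Mettl3pKO members 0, 1, 2, 3 and 5. The minimum thus admitted them through WT cells in which they were high, so their place among the lower genes is no separate result. Without the cluster, the list held 1 higher and 3 lower of 12 and its median was -0.32.

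The cluster was also uneven across embryos of the WT library, with 18 of its cells carrying Xist and no Y-linked UMI and 0 carrying Y-linked UMIs alone. A cell was called interferon-high with at least 3 UMIs over Ifit1, Ifit3, Rsad2 and Usp18, a limit chosen with these values in view. This held for 0 of 62 Mettl3pKO members, which allows a share of up to 4.84%, and for 18 of 659 WT members (2.73%; 1.63 to 4.28), 17 of them in the cluster. Of the WT members with Xist alone it held for 16 of 349, and of those with Y-linked UMIs alone for 0 of 225. Interferon-high cells were not confined to the mesenchyme or to WT. They were 0.910% of Epcam-positive Mettl3pKO cells (27 of 2968) and 2.43% of Epcam-positive WT cells (104 of 4280), where cells with Y-linked UMIs alone reached 1.16% in Mettl3pKO and 3.16% in WT. The limit that 0 of 62 allows lies above the WT share, so a difference between genotypes was not detectable at this number of cells. In the cluster, immune marker genes had 102 UMIs, found in 6 of its 22 cells, and Ctss, a cathepsin of myeloid cells, was found in 4.55% of its cells, so immune RNA was present in a minority of them.

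The promoters of some genes that led the cluster are shown because interferon acts on such genes through a short promoter element. Windows from 250 bases before to 50 bases after the start, on the strand of the gene, were read from RefSeq (GRCm38.p6). The motif GAAANNGAAA, the core of the interferon-stimulated response element, was searched on both strands, where its reverse complement reads TTTCNNTTTC, and matches are in capitals. The windows are chr19:34640639-34640938 for Ifit1 (plus strand), chr19:34583279-34583578 for Ifit3 (plus strand), chr12:26456403-26456702 for Rsad2 (minus strand) and chr5:92348840-92349139 for Cxcl10 (minus strand).
Ifit1: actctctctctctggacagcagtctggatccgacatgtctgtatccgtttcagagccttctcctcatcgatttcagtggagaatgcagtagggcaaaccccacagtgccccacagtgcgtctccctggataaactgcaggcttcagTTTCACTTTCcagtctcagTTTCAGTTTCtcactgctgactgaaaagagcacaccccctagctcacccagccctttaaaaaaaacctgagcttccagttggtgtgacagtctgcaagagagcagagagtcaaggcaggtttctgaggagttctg
Ifit3: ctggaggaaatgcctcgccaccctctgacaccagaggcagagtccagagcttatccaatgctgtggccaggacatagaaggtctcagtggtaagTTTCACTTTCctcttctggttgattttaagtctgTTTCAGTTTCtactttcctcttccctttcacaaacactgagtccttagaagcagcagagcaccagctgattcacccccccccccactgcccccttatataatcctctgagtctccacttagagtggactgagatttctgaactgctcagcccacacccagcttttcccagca
Rsad2: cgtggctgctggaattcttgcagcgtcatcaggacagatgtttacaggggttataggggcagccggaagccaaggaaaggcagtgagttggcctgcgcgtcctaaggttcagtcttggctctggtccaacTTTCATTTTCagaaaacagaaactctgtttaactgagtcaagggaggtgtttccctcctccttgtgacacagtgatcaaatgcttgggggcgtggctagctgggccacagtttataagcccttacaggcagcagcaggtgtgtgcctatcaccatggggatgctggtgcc
Cxcl10: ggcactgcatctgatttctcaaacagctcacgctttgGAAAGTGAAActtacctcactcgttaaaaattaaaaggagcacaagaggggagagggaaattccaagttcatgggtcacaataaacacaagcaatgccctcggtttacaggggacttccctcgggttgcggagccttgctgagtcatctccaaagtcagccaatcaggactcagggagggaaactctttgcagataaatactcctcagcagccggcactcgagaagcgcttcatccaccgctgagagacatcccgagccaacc
Ifit1 and Ifit3 each held 2 matches, which begin 104 and 85 bases before the start of Ifit1 and 156 and 122 bases before that of Ifit3. Rsad2 held 1 match, 120 bases before the start, and Cxcl10, a chemokine, 1 match, 213 bases before it. Of 10 interferon genes looked up, 9 had an entry and 7 of these held the motif, beside 3.44% of all 32851 promoters in the table; 2 or more matches were held by 0.225% of all promoters. The genes looked up were picked by hand. They included Isg15, Irf7 and Oasl2, which were not among the cluster's 10 leading genes, and left out Iigp1, Ctss and Nlrp3, which were. A match describes the letters of the window and is not a measured binding site.

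**Figure D5:**
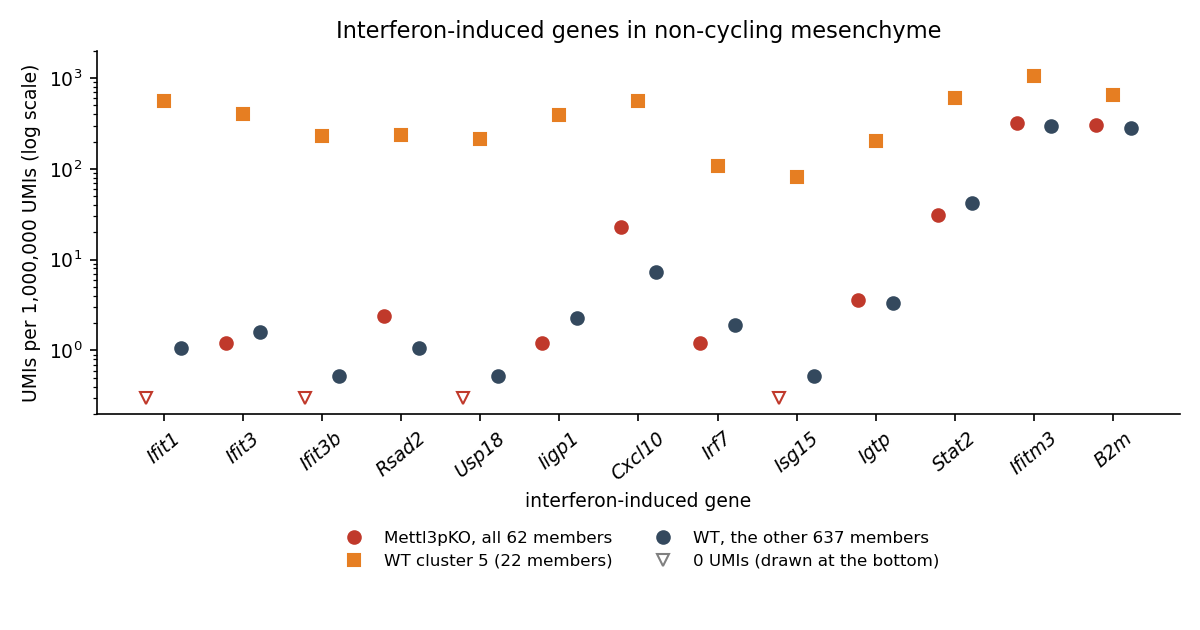
Level of 13 interferon-induced genes (UMIs per 1000000 UMIs, log axis) in all 62 Mettl3pKO members, in the 22 WT members of the interferon cluster and in the other 637 WT members; open triangles at the bottom stand for 0 UMIs. Ifit1 stands at 559 CPM in the cluster and 1.05 CPM in the other WT members, while Ifitm3 and B2m lie at like levels in Mettl3pKO members and the other WT members.

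The other WT clusters described how the mesenchyme varied. The genes that formed a cluster are given as a description. The cluster of 258 cells was led by Cxcl1, Nr4a1, Zfp36, Hes1 and Btg2, immediate early and feedback genes, and the immediate early list summed to 181 UMIs per 10000 there, against 108 in the other WT members. The cluster of 150 cells was led by Stmn2, Mgp, the Wnt modulator Sfrp2, the retinoid-binding protein Crabp1, Fn1, Sulf1 and Barx1. Barx1 was found in 51.3% of these cells and in 21.6% of the rest. The cluster of 133 cells was led by the unannotated transcript Gm26917, the ligand Bmp7, Gap43, the guidance cue Sema3c and Adgrd1, with the sterol synthesis gene Idi1. Bmp7 was found in 65.4% of these cells and in 14.1% of the rest.

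The cluster of 96 WT cells was led by the heme synthesis gene Alas2, the integrin Itga1, Thy1, the transcription factor Ets1, Mkrn1 and the contractile genes Acta2 and Mylk. Acta2, smooth muscle actin, was found in 56.2% of these cells and in 26.6% of the rest, and the pericyte and smooth muscle markers summed to 18.6 UMIs per 10000, against 9.26 in the other WT members. The erythroid list, mostly globins, summed to 329.5 UMIs per 10000 in this cluster, against 26.2 in the rest. Red cell RNA therefore moved with this cluster, and its part in the grouping was not tested. In all members, the mural list held 1 of 9 at least 1.5-fold higher and 0 lower, with a median of 0.33 that was 0.10 among deep members. The log2 ratio was above 0 for 8 of these genes and below 0 for 1, and among deep members above 0 for 5 and below 0 for 4. Acta2 stood at 166 CPM in Mettl3pKO members and 133 CPM in WT members. The 1 gene below 0 over all members was the pericyte gene Rgs5, at 131 CPM in Mettl3pKO members and 186 CPM in WT members.

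The 62 Mettl3pKO members formed 2 clusters. The 42 cells of the larger were led by Pcsk1n, the protease inhibitor Serpine2, the transcription factor Sox6, the Axl ligand Gas6, Cxcl1, Spry4, Mgp and Serpina6. Pcsk1n was found in only 11.9% of these 42 cells and in none of the rest. Serpine2 was found in 92.9% of the 42 cells and in 25% of the rest. Serpina6 averaged 4.10 UMIs per 10000 in these 42 cells and 0.734 in the rest, and was found before thinning in 71.4% of the 42 cells and 70.0% of the rest. The 20 cells of the smaller were led by Adamts16, Krtdap, Spon2, Anxa1, Nov, Adgrd1, Prelp and Vldlr, which include matrix proteins and their proteases. Their fibrillar collagens summed to 194 UMIs per 10000, against 100.5 in the other Mettl3pKO members. Cells with Y-linked UMIs and no Xist made up most of both clusters, 17 of these 20 cells and 29 of the 42, while the 10 cells with Xist alone were all among the 42.

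Set beside cycling mesenchyme of the same library, non-cycling cells carried fewer S phase transcripts in both genotypes, and matrix lists varied. The selection used proliferation genes in this very contrast, so these values describe the split and support nothing. In Mettl3pKO, 791 of 8313 genes (9.52%) were at least 1.5-fold higher in non-cycling cells and 1052 (12.7%) lower, and in WT 698 of 10754 (6.49%) were higher and 893 (8.3%) lower. Ogn, a small leucine-rich proteoglycan, stood in Mettl3pKO at 639.8 CPM in non-cycling and 196 CPM in cycling cells, a ratio of 3.26, and in WT at 525 CPM in non-cycling and 240.2 CPM in cycling cells, a ratio of 2.19. Col5a3 had a non-cycling to cycling ratio of 2.08 in Mettl3pKO and 1.71 in WT, and Aspn, a related proteoglycan, 2.00 in Mettl3pKO and 1.66 in WT. The retinoic acid receptor Rarg had a ratio of 3.18 in Mettl3pKO and 2.07 in WT. The fibrillar collagens had a median log2 ratio of 0.35 in Mettl3pKO, with 1 of 6 higher and 0 lower, and 0.37 in WT, with 2 of 6 higher and 0 lower. The matrix proteases and inhibitors had a median of 0.33 in both, with 6 of 30 higher and 1 lower in Mettl3pKO and 3 of 33 higher and 1 lower in WT. The other collagens had a median of -0.06 in Mettl3pKO, with 0 of 15 higher and 1 lower, and 0.13 in WT, with 0 of 18 higher and 0 lower. The S phase genes had a median of -1.20 in Mettl3pKO and -1.07 in WT, with 24 of 32 lower in Mettl3pKO and 26 of 32 lower in WT. For Hgf the ratio was 0.324 in Mettl3pKO and 1.22 in WT.

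Markers of other cell types were present at low levels, some of them from few cells. Endothelial markers summed to 32.2 CPM in Mettl3pKO members and 57.8 CPM in WT members, with 3 of 10 at 0 in Mettl3pKO and 0 of 10 in WT. Immune markers summed to 174 CPM in Mettl3pKO members and 63.9 CPM in WT members, with 3 of 10 at 0 in Mettl3pKO, Ptprc among them, and 1 of 10 in WT. Of the 42 UMIs of the complement gene C1qb in Mettl3pKO members, 32 came from 1 cell, and of the 18 in WT members, 17 came from 1 cell. The neuroendocrine gene Chga had 46 UMIs in Mettl3pKO members, 42 of them in 1 cell, and 130 in WT members, 63 of them in 1 cell. Glial and neuronal markers summed to 64.5 CPM in Mettl3pKO members and 44.2 CPM in WT members, with 6 of 10 at 0 in Mettl3pKO, Sox10 among them, and 1 of 10 in WT. Epithelial markers summed to 87.1 CPM in Mettl3pKO members and 52.9 CPM in WT members, against 2822 CPM in Epcam-positive Mettl3pKO cells and 2844 CPM in Epcam-positive WT cells. Erythroid markers summed to 5048 CPM in Mettl3pKO members and 7281 CPM in WT members, close to their level in Epcam-positive cells at 4163 CPM in Mettl3pKO and 5477 CPM in WT. The mesothelial marker Wt1, which the rule did not use, stood at 54.9 CPM in Mettl3pKO members and 59.8 CPM in WT members.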

How the data were processed

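Per the labels, dissociated pancreatic cells of 1 Mettl3pKO and 1 WT library were profiled. The authors deposited unscaled UMI counts, whole numbers for each gene in each cell, from the BD WTA Rhapsody pipeline version 1.8 per the file headers. The submitters' processing notes name mm10 and Seurat, without a role. Library totals were 65779771 UMIs (Mettl3pKO) and 80011421 UMIs (WT). The last, incomplete line of each table was dropped, and 22023 genes listed in both tables were used. No cell filter beyond the selection rule and no doublet caller were applied.

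UMIs were summed over members per library, and levels are per 1000000 UMIs. Genes needed 50 UMIs over both libraries. Log2 ratios had 0.5 UMIs added. Counts of 0 were read as allowing 3. Members of each library were clustered alone (Leiden, scanpy 1.11.5) on variable genes without rule, sex-linked, globin, ribosomal and mitochondrial genes. Intervals used scipy 1.17.1, and the computation was tested on simulated data. Named were Mettl3, the rule genes and mesenchyme markers, the 12 highest and 12 lowest ratios by the interval bound nearest 1 (genes of at least 100 CPM in either library, without acinar, hormone, sex-linked, globin, ribosomal and mitochondrial genes), 2 to 4 members per list and the leading genes per cluster. Genes named besides these were chosen for their role or after their values were seen. The members and lists were chosen with earlier results of these data known. Alternatives covered depth, thresholds of the rule, scaling, aggregation, count filters and sex of embryos. A few leading or listed genes are not reported here.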

Additional observations from a re-analysis of the deposited data

Results flagged for a closer look

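For Sox11 and Tubb6 the ratio of Mettl3pKO to WT was at least 1.5-fold from 1 in opposite directions in members of different sex. For Sox11 it was 0.583 (0.157 to 1.52) among members with Xist alone and 2.35 (1.74 to 3.17) among members with Y-linked UMIs alone, and for Tubb6 it was 0.250 (0.0677 to 0.645) among members with Xist alone and 2.08 (1.69 to 2.56) among those with Y-linked UMIs alone. The Mettl3pKO library had 10 members with Xist alone, with 4 UMIs of Sox11 and 4 UMIs of Tubb6, and the interval for Sox11 holds 1. The difference itself was not tested. By less than 1.5-fold for members with Xist alone, the ratios also lay on opposite sides of 1 for Tagln2, at 0.893 among members with Xist alone and 1.91 among those with Y-linked UMIs alone, and for Peg10, at 1.01 among members with Xist alone and 0.531 among those with Y-linked UMIs alone.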

How the results depend on the processing

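No paired analysis was possible because each genotype had 1 library, and no replicate could be left out. Shares and counts moved with depth. As Mettl3pKO over WT ratios, the share of all cells was 0.166 and became 0.581 at 11000 UMIs, 0.792 at 13000 UMIs, 0.250 with at most 10% mitochondrial UMIs and, added after seeing the data, 0.642 with the rule applied to thinned cells of at least 11000 UMIs. The share of mesenchyme became 0.708, 0.816 and, for thinned cells, 0.789. Genes at least 1.5-fold higher (664) and lower (829) became 301 and 305 at 11000 UMIs, 215 and 143 at 13000 UMIs, 1355 and 1813 in Xist members, 1046 and 1259 with 20 UMIs per gene, 153 and 214 with 200 UMIs per gene, 116 and 263 past 2-fold, and 1629 and 142 with 5 UMIs added, since the Mettl3pKO sums are smaller. Lower genes were 552 in Y-linked members. Reversed ratios were those of Tagln2 (0.893), Sox11 (0.583), Tubb6 (0.250) and Peg10 (1.01) in Xist members and of Peg10 (1.03) at 13000 UMIs; the cause was not tested. The immune list's median of 1.35 became -0.70 with a collagen n of 40 and -0.49 with under 2 UMIs of other cell types' genes. Of the 24 named genes, 24 kept their direction in Y-linked members, 20 in Xist members and 23 at 13000 UMIs. Leaving out the WT interferon cluster, added after seeing the data, gave 625 higher and 788 lower genes.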
